A study of Mus musculus with 6 samples.

Results

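Interferon response genes were followed through 6 RNA-seq libraries of mouse skin carcinogenesis. The 35 genes are those of a list of regulators, nucleic acid sensors, antiviral effectors, guanylate-binding proteins and chemokines that interferons switch on. All 35 were found by symbol, 1 gene model each, among the 23726 models of the deposited table. In the DMBA/TPA protocol, the mutagen DMBA and then the tumour promoter TPA are put on the skin, and benign papillomas and then malignant tumours grow there. The samples were biopsies of a DMBA/TPA-induced tumour (1 library), of papillomas induced in the same way (2 libraries, from distinct papillomas) and of healthy skin (1 library). Besides these there were mSCC-38 cells, called highly tumorigenic (1 library), and mSCC-20 cells, called non-tumorigenic (1 library), both isolated from DMBA/TPA tumours. The labels give no strain, age or time, and do not say whether the papillomas came from separate mice. P-values therefore measure only the spread between 2 distinct papillomas, which may not cover the spread between mice. No spread between tumours or between skins was measured.

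Interferons are secreted proteins that cells release on sensing foreign or misplaced nucleic acid (type I, such as interferon beta) or that activated T and NK cells release (type II, interferon gamma). Type I interferon acts through a complex that holds Stat2 and Irf9 and binds a promoter element called the ISRE to switch on antiviral genes. Interferon gamma acts through another promoter element, called GAS, to switch on Irf1, guanylate-binding proteins and the chemokine Cxcl9, while several targets answer to both. In skin, keratinocytes, macrophages, dendritic cells and T cells can all make or answer interferon. By this division 29 of the genes are called antiviral here, 3 gamma-type (Cxcl9, Irf1 and Gbp2) and 3 shared (Cxcl10, Cxcl11 and Gbp3).

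Several of these genes lie side by side. In build mm9, which the table uses, Cxcl9, Cxcl10 and Cxcl11 lie at chr5:92750357-92792322, Oas2, Oas3 and Oas1a at chr5:121180342-121357534, and Ifit2, Ifit3 and Ifit1 at chr19:34625184-34724499. Cxcl10 and Cxcl11 lie wholly inside Art3, which runs on the other strand, and the counting of strand is not given in the sources used here. Art3 had 257 counts in the tumour, 153 and 230 in the papillomas and 2149 in skin, and Cxcl10 had 1031 in the tumour, 72 and 61 in the papillomas and 109 in skin. How reads of Art3 were shared with them was not tested. Reads of the related Oas, Ifit and guanylate-binding genes may also have been split between similar genes, which was not tested.

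RefSeq promoter sequences (build GRCm38.p6) were matched by symbol for 26 of the 35 genes, and the 250 bases before each start were searched on both strands for an ISRE-like motif, GAAANNGAAA, and a GAS-like motif, TTCNNNGAA, with overlapping matches counted. The ISRE-like motif was in 11 of the 26 (42.3%), against 3.46% of 27025 genes in the same table. These were Stat2, Isg15, Ifit1, Ifit3, Oas1a, Oas3, Rsad2, Bst2, Gbp2, Gbp3 and Cxcl10. The GAS-like motif was in 6 of the 26 (23.1%), against 8.13% of all genes, and these were Irf1, Isg20, Ifit2, Oas1a, Eif2ak2 and Bst2. A match is a description of the letters, not a bound site, and 11 genes, among them Irf7, Oasl1 and Cxcl9, had neither motif in this window. The 6 stretches below are shown because they belong to the gamma-type genes, to the shared chemokine Cxcl10 and to 2 antiviral genes with smaller differences in the tumour. Each is 160 bases, written 5′ to 3′ in the direction of the gene, with motif matches in capitals.
Irf1: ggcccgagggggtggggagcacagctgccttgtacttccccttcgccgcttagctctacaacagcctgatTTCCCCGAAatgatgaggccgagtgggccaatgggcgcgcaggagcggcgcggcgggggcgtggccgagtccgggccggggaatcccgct
Gbp2: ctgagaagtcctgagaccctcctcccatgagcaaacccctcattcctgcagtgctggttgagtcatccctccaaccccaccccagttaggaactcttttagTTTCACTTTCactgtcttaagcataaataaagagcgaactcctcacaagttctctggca
Cxcl9: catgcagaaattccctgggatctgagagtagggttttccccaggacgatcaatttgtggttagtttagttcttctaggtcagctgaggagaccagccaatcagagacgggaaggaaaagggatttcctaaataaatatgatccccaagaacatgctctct
Cxcl10: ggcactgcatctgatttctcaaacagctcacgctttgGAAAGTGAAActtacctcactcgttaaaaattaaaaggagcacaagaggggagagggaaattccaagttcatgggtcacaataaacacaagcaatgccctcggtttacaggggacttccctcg
Isg15: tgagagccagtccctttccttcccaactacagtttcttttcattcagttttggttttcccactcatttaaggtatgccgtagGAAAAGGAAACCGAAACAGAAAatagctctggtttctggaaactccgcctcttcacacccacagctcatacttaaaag
Ifit3: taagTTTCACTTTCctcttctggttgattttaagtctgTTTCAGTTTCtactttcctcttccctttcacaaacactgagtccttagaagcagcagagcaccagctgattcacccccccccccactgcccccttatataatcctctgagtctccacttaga
The Irf1 stretch (chr11:53769854-53770013, plus strand) holds the GAS-like motif alone, and the Gbp2 stretch (chr3:142620503-142620662, plus strand) holds an ISRE-like match read on the other strand. Cxcl9 (chr5:92328080-92328239, minus strand) has no capitals. The Cxcl10 stretch (chr5:92348980-92349139, minus strand) runs from 250 to 91 bases before the start, whereas the other stretches end at the start. Isg15 (chr4:156200819-156200978, minus strand) has a run of overlapping ISRE-like matches, and Ifit3 (chr19:34583369-34583528, plus strand) has a pair of separate ones.

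Levels are given as CPM (counts per 1000000 counts), scaled between libraries with TMM factors. Total counts ran from 25140489 in papilloma 1 to 42992597 in the tumour, and 3 counts, the limit that a count of 0 allows, were worth 0.0604 to 0.141 CPM. The RNA integrity number was 9.1 in the tumour, 8.4 and 8.2 in the papillomas and 7.5 in skin, and 9.6 in mSCC-38 and 9.3 in mSCC-20. Papilloma 2 also held hair genes, at a median of 23.8% of their skin level over 18 genes, against 0.0541% in papilloma 1, while for the interferon genes the papillomas differed by at most 2.02-fold (Oasl1, with 0.5 CPM added to each side), and by at most 1.49-fold for the other genes. Every gene of the list had more than 3 counts in each biopsy. In the cells, 5 of the 35 genes had 3 counts or fewer in mSCC-38 and 7 in mSCC-20. The summed level of the list was 1575 CPM in the tumour, 540 and 524 CPM in the papillomas and 512 CPM in skin, and 703 CPM in mSCC-38 and 501 CPM in mSCC-20. The tumour was the library with the highest level for 21 of the 35 genes, and mSCC-20 the one with the lowest level for 21. In bulk samples, more cells of a type and more RNA per cell cannot be told apart.

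**Figure D1:**
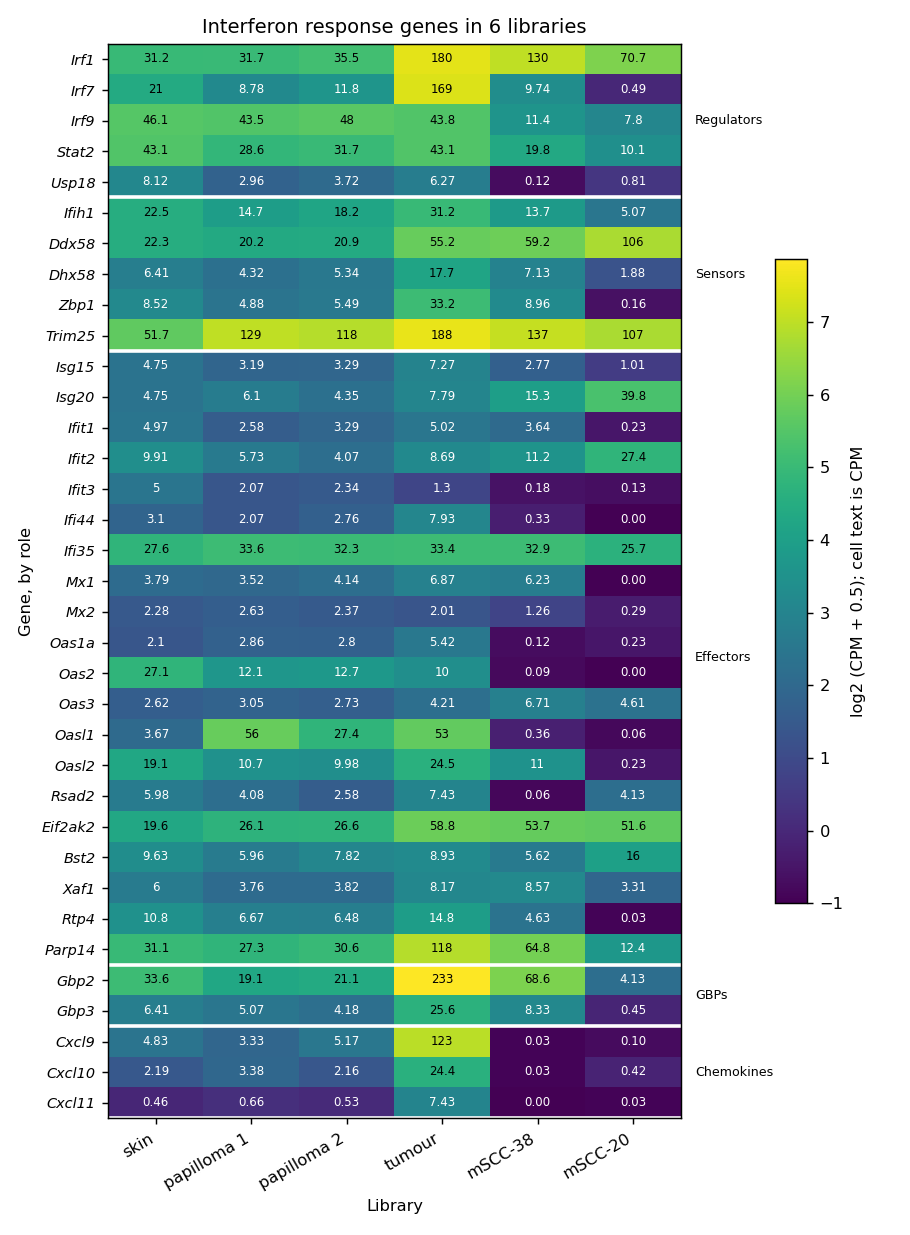
Level of each of the 35 genes (rows, grouped by role) in each of the 6 libraries (columns). Colour is log2 of CPM with 0.5 added, and the number in each cell is the CPM. The tumour column is the brightest for Irf1, Irf7, Gbp2 and the 3 chemokines, and mSCC-20 has several cells at or near 0.

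The first comparison sets the malignant tumour against the papillomas. Of the 35 genes, 16 were higher in the tumour and 0 were lower (edgeR quasi-likelihood test over all genes, Benjamini-Hochberg adjusted p under 0.05). That is 45.7% of the list called higher, against 11.9% of all 16353 genes tested called higher and 10.6% called lower. At an unadjusted p under 0.05 the counts were 24 higher and 0 lower, and DESeq2 called 17 higher and 0 lower. The median log2 ratio was 1.01 over the list and 0.01 over all genes. The tumour lay above both papillomas for 29 of the 35 genes, as it did for 43.9% of all genes, and below both for 3 (Ifit3, Mx2 and Oas2), as for 43.0% of all genes. With a rule of size in place of the test (at least 2-fold with 0.5 CPM added to each side, and at least 1 CPM in the higher group), 18 were higher and 0 lower, against 10.8% and 12.3% of all genes.

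The chemokines Cxcl9, Cxcl10 and Cxcl11, which draw T and NK cells through the receptor Cxcr3, all rose, and Cxcl9 had the widest gap of the list. Cxcl9 was at 123 CPM in the tumour, 3.33 and 5.17 CPM in the papillomas and 4.83 CPM in skin. Cxcl10 was at 24.4 CPM in the tumour, 3.38 and 2.16 CPM in the papillomas and 2.20 CPM in skin. Cxcl11 was at 7.43 CPM in the tumour, 0.657 and 0.531 CPM in the papillomas and 0.463 CPM in skin. Each of the 3 thus stood far above all other biopsies in the tumour alone, and the papillomas straddled skin for Cxcl9 and Cxcl10. The log2 fold changes of tumour over papilloma were 4.85 ± 0.27 (SE) for Cxcl9, 3.15 ± 0.34 for Cxcl10 and 3.65 ± 0.40 for Cxcl11, with edgeR adjusted p of 0.00227, 0.00714 and 0.00748.

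The guanylate-binding proteins are GTPases that attack vacuoles of intracellular microbes. Gbp2 was at 233 CPM in the tumour, 19.1 and 21.1 CPM in the papillomas and 33.6 CPM in skin. Gbp3 was at 25.6 CPM in the tumour, 5.07 and 4.18 CPM in the papillomas and 6.41 CPM in skin. Among the biopsies both were highest in the tumour and lowest in a papilloma. The log2 fold changes of tumour over papilloma were 3.54 ± 0.16 for Gbp2 (edgeR adjusted p = 0.00208) and 2.47 ± 0.25 for Gbp3 (edgeR adjusted p = 0.00593).

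Among the 5 regulators, 2 rose and 0 fell, against 11.9% of all genes higher and 10.6% lower. Irf7, the factor that amplifies type I interferon production, was at 169 CPM in the tumour, 8.78 and 11.8 CPM in the papillomas and 21.0 CPM in skin. Irf1, the factor induced through GAS elements, was at 179.8 CPM in the tumour, 31.7 and 35.5 CPM in the papillomas and 31.2 CPM in skin. Tumour over papilloma, Irf7 stood at 4.04 ± 0.22 on the log2 scale, with edgeR adjusted p = 0.00227, larger than that of every other antiviral gene of the list, and Irf1 at 2.42 ± 0.16 (edgeR adjusted p = 0.00272). The partners of the type I complex did not pass the test. Stat2 was at 43.1 CPM in the tumour and 28.6 and 31.7 CPM in the papillomas (log2 fold change 0.52 ± 0.15, edgeR adjusted p = 0.0683). Irf9 was at 43.8 CPM in the tumour and 43.5 and 48.0 CPM in the papillomas (log2 fold change -0.06 ± 0.15, edgeR adjusted p = 0.785). Usp18, which removes Isg15 from proteins and dampens the receptor, was at 6.27 CPM in the tumour and 2.96 and 3.72 CPM in the papillomas (edgeR adjusted p = 0.103).

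Of the 5 nucleic acid sensors and their helpers, 4 rose and 0 fell, against 11.9% of all genes higher and 10.6% lower. Zbp1, a sensor of left-handed nucleic acid, was at 33.2 CPM in the tumour and 4.88 and 5.49 CPM in the papillomas (log2 fold change 2.68 ± 0.21, edgeR adjusted p = 0.00374). Dhx58 (LGP2) was at 17.7 CPM in the tumour and 4.32 and 5.35 CPM in the papillomas. Ddx58 (RIG-I) was at 55.2 CPM in the tumour and 20.2 and 20.9 CPM in the papillomas. Ifih1 (MDA5) was at 31.2 CPM in the tumour and 14.7 and 18.2 CPM in the papillomas. The 3 RNA helicases thus rose together, with log2 fold changes of 1.87 ± 0.27 for Dhx58, 1.43 ± 0.14 for Ddx58 and 0.92 ± 0.19 for Ifih1 and edgeR adjusted p of 0.0128, 0.00593 and 0.0329. Ifih1 lost its call when libraries were scaled by total counts alone (edgeR adjusted p = 0.0611). Trim25, the ubiquitin ligase of RIG-I, was at 188 CPM in the tumour and 128.7 and 117.6 CPM in the papillomas, which did not pass the test (edgeR adjusted p = 0.0683).

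Among the 20 antiviral effectors, 5 rose, 0 fell and 15 did not pass the test, against 11.9% of all genes higher and 10.6% lower. Parp14, an ADP-ribosyltransferase, was at 118 CPM in the tumour and 27.3 and 30.6 CPM in the papillomas, the widest of these gaps (log2 fold change 2.03 ± 0.15, edgeR adjusted p = 0.0033). Eif2ak2 (PKR), which halts translation on double-stranded RNA, was at 58.8 CPM in the tumour and 26.15 and 26.58 CPM in the papillomas. Oasl2 was at 24.5 CPM in the tumour and 10.7 and 9.98 CPM in the papillomas. Rtp4 and Ifi44 were at 14.8 and 7.93 CPM in the tumour, and at 6.48 to 6.67 CPM and 2.07 to 2.76 CPM in the papillomas. These 5 stood above both papillomas, with log2 fold changes of 1.16 ± 0.14 for Eif2ak2, 1.25 ± 0.18 for Oasl2, 1.17 ± 0.23 for Rtp4 and 1.71 ± 0.35 for Ifi44 (edgeR adjusted p from 0.00837 to 0.0297).

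Classical antiviral effectors were among those that did not pass. Isg15, a ubiquitin-like protein, was at 7.27 CPM in the tumour and 3.19 and 3.29 CPM in the papillomas (log2 fold change 1.16 ± 0.30, edgeR adjusted p = 0.0527), and Xaf1 at 8.17 CPM in the tumour and 3.76 and 3.82 CPM in the papillomas (edgeR adjusted p = 0.0524). Both were called when no filter on low counts was used. The RNA-binding Ifit1 was at 5.02 CPM in the tumour and 2.58 and 3.29 CPM in the papillomas, and Ifit3 at 1.30 CPM in the tumour and 2.07 and 2.34 CPM in the papillomas. The oligoadenylate synthetase Oas2 was at 10.01 CPM in the tumour and 12.1 and 12.7 CPM in the papillomas. Thus Ifit1 lay above the papillomas in the tumour, while Ifit3 and Oas2 lay below them, with edgeR adjusted p of 0.173, 0.228 and 0.311. The GTPase genes Mx1 and Mx2 were at 6.87 and 2.01 CPM in the tumour and at 3.52 to 4.14 CPM and 2.37 to 2.63 CPM in the papillomas. Rsad2 (viperin) was at 7.43 CPM in the tumour and 4.085 and 2.584 CPM in the papillomas. Ifi35 was at 33.4 CPM in the tumour and 33.6 and 32.3 CPM in the papillomas, with all 3 within the same narrow range.

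**Figure D2:**
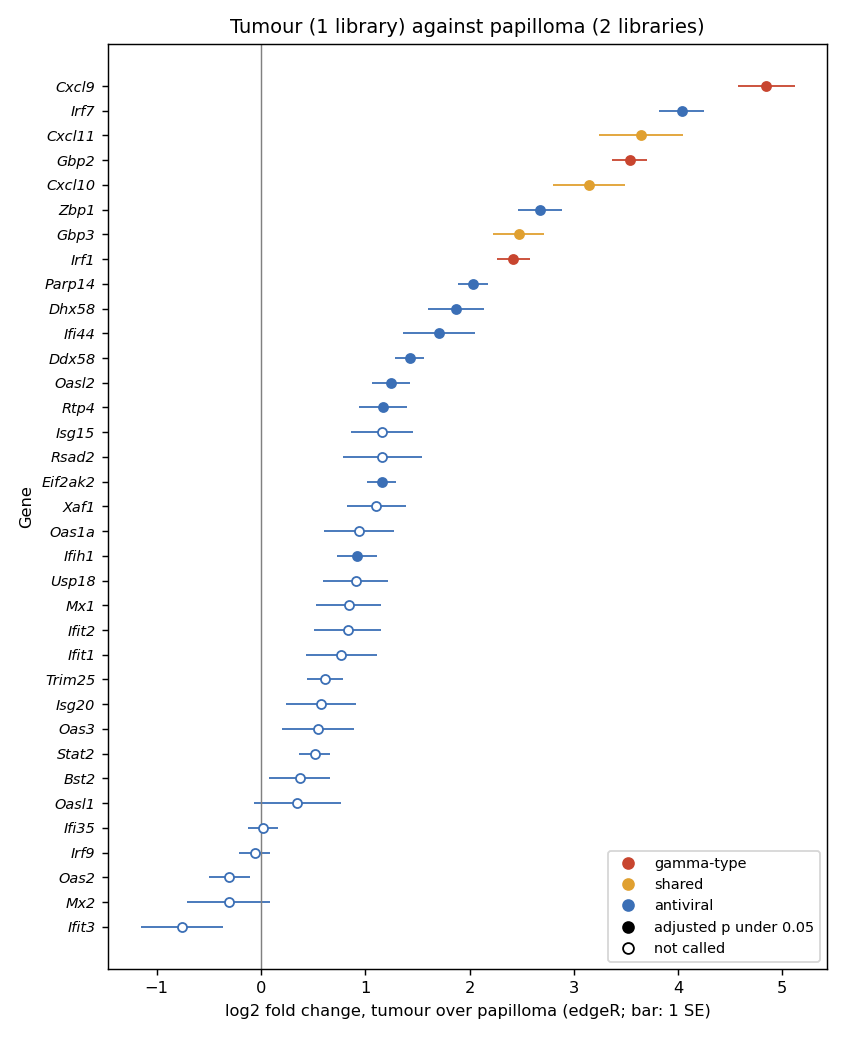
Log2 fold change of the tumour over the papillomas for each gene (edgeR, bars are 1 SE), coloured by interferon class, with filled points at an adjusted p under 0.05. The 3 gamma-type and 3 shared genes are all filled and lie between 2.42 and 4.85, and the 29 antiviral genes run from -0.76 for Ifit3 to 4.04 for Irf7, with 10 filled.

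Set against each other, 3 of 3 gamma-type genes, 3 of 3 shared genes and 10 of 29 antiviral genes were called higher in the tumour than in the papillomas. The share of all genes called higher was 11.9%. The median log2 ratio was 3.50 for the gamma-type genes, 2.86 for the shared genes and 0.82 for the antiviral genes, so the antiviral median minus the gamma-type median was -2.68. Without papilloma 1 or papilloma 2 this difference was -2.59 or -2.74, and it was -2.07 with the shared genes counted as gamma-type. Irf7 and Zbp1, both antiviral by this division, had higher log2 ratios than the gamma-type Irf1. With 3 gamma-type genes the difference is a description, and no test was made of it. Within a library, levels per transcript length (the authors' RPKM) put Gbp2 (94.2 RPKM) and Irf7 (90.55 RPKM) first in the tumour, then Irf1 (53.1 RPKM) and Cxcl9 (41.9 RPKM), against a median of 9.33 RPKM over the list. In papilloma 1 the first was Oasl1 (22.5 RPKM), and in papilloma 2 (22.6 RPKM) and skin (24.5 RPKM) it was Ifi35.

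Tumour and skin were 1 library each, so their differences have no replicate check and no test, and the tumour and papilloma libraries here are those of the comparison above. By the rule of size, 16 of the 35 genes were higher in the tumour than in skin and 2 were lower, against 14.7% and 20.5% of all genes. The median log2 ratio was 0.66 over the list and 0.00 over all genes. With 0.5 CPM added to each side, Cxcl9 was 23.1-fold higher in the tumour than in skin, Cxcl10 9.24-fold, Cxcl11 8.24-fold, Irf7 7.89-fold, Gbp2 6.85-fold and Irf1 5.69-fold. Zbp1, Parp14, Gbp3 and Trim25 were 3.62-fold to 3.78-fold higher. Oasl1 was at 52.96 CPM in the tumour against 3.67 CPM in skin, a ratio of 12.8. The lower genes were Ifit3, at 1.30 CPM in the tumour against 4.995 CPM in skin, and Oas2, at 10.01 CPM in the tumour against 27.1 CPM in skin. The gamma-type median log2 ratio was 2.78 and the antiviral one 0.46. The antiviral genes ranged widely around their median, with 10 of 29 higher by the rule of size, 2 lower and the rest within 2-fold.

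**Figure D3:**
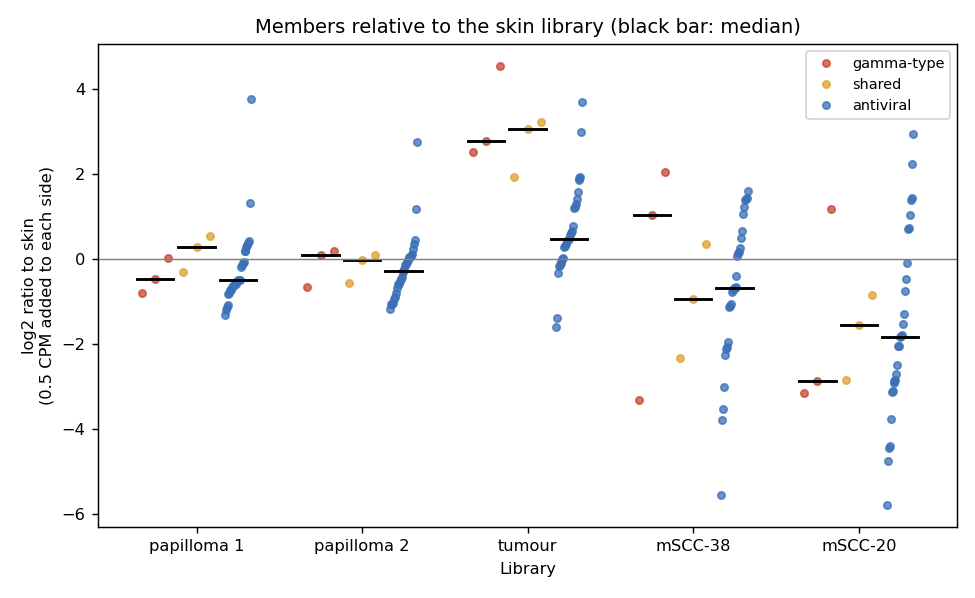
Log2 ratio of each gene to its level in the skin library (0.5 CPM added to each side), by library and interferon class, with a black bar at the median of each class. In the tumour the gamma-type median is 2.78 and the antiviral median 0.46, and in the papillomas all class medians lie between -0.51 and 0.26.

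The comparison of the papillomas with skin covers the benign stage, and it shares the papilloma libraries with the first comparison. Of the 35 genes, 2 were higher in the papillomas and 5 were lower (edgeR adjusted p under 0.05), against 12.0% and 14.1% of all genes, so the share called lower (14.3%) was near that of all genes. At an unadjusted p under 0.05 there were 3 higher and 10 lower. By the rule of size 2 of 34 were higher and 3 lower, against 10% and 16.9% of all genes. The median log2 ratio was -0.37 over the list and -0.03 over all genes. Scaling by total counts alone moved the median of all genes to -0.44 and that of the list to -0.75, and then 2 were called higher and 10 lower.

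The genes that rose were Oasl1 and Trim25. Oasl1, an oligoadenylate synthetase-like protein known in mice to hold back the translation of Irf7, was at 56.0 and 27.4 CPM in the papillomas and 3.67 CPM in skin. The papillomas differed 2.02-fold from each other for Oasl1, the one gene of the 35 over 2-fold between them, and both lay far above skin (log2 fold change 3.51 ± 0.52, edgeR adjusted p = 0.016). Trim25 was at 128.7 and 117.6 CPM in the papillomas and 51.7 CPM in skin (log2 fold change 1.26 ± 0.19, edgeR adjusted p = 0.0167). The genes that fell were Usp18, Oas2, Irf7, Oasl2 and Gbp2. Oas2 was at 12.1 and 12.7 CPM in the papillomas and 27.1 CPM in skin (log2 fold change -1.13 ± 0.19, edgeR adjusted p = 0.0192). Irf7 was at 8.78 and 11.8 CPM in the papillomas and 21.0 CPM in skin (log2 fold change -1.02 ± 0.21, edgeR adjusted p = 0.0306). Usp18, Oasl2 and Gbp2 fell too, with log2 fold changes of -1.27 ± 0.31, -0.89 ± 0.19 and -0.74 ± 0.16 and edgeR adjusted p of 0.0431, 0.031 and 0.036. Both papillomas lay below skin for each of these 5 genes. Of these falls only that of Oas2 kept its call under every alternative that gave a test: DESeq2 gave adjusted p of 0.0854 for Usp18 and 0.059 for Oasl2, and with DESeq2 size factors those of Irf7, Usp18 and Gbp2 were 0.0514, 0.0579 and 0.0529.

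The mSCC-38 and mSCC-20 cells were 1 library each, so ratios are given with exact 95% Clopper-Pearson intervals, which cover counting error only. Of 26 genes with at least 1 CPM in either, 14 were at least 2-fold higher in mSCC-38 than in mSCC-20 and 4 were lower, against 17.2% and 15.7% of all genes. The median log2 ratio was 0.61 over the whole list, with the genes under 1 CPM in both included. It was -0.13 over all genes with at least 1 CPM in either. Gbp2 was at 68.6 CPM in mSCC-38 and 4.13 CPM in mSCC-20, a ratio of 16.6 (13.9 to 20). Gbp3 had 277 counts in mSCC-38 and 14 in mSCC-20, a ratio of 18.3 (10.7 to 33.9). Irf7 had 324 counts in mSCC-38 and 15 in mSCC-20, a ratio of 20 (11.9 to 36.1). The guanylate-binding genes and Irf7 thus differed by a similar factor between the 2 kinds of cells.

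Larger ratios came from genes near 0 in mSCC-20. Zbp1 had 298 counts in mSCC-38 and 5 in mSCC-20, a ratio of 55.2 (23.4 to 171), and Oasl2 had 365 counts in mSCC-38 and 7 in mSCC-20, a ratio of 48.3 (23.2 to 121). Rtp4 had 154 counts in mSCC-38 and 1 in mSCC-20, a ratio of 143 (25.2 to 5667). Mx1 had 207 counts in mSCC-38 and 0 in mSCC-20, at least 63.9-fold higher with 3 counts allowed in mSCC-20. Mx1, Rtp4, Zbp1 and Oasl2 were thus well counted in mSCC-38 and barely counted in mSCC-20. Ifit1 had a ratio of 16 (7.53 to 40.6), Parp14 one of 5.23 (4.69 to 5.85), and Mx2, Dhx58, Isg15, Ifih1 and Xaf1 ratios of 2.59 to 4.32.

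The genes lower in mSCC-38 by this rule were Rsad2, Bst2, Isg20 and Ifit2. Usp18 was under the minimum of 1 CPM in both, with 4 counts in mSCC-38 and 25 in mSCC-20, a ratio of 0.148 (0.0375 to 0.429). Rsad2 had 2 counts in mSCC-38 and 127 in mSCC-20, a ratio of 0.0146 (0.00175 to 0.0538). Bst2 (tetherin, which holds budding virus at the membrane) was at 5.62 CPM in mSCC-38 and 15.99 CPM in mSCC-20. Isg20, an RNA exonuclease, was at 15.3 CPM in mSCC-38 and 39.8 CPM in mSCC-20, and Ifit2 at 11.2 CPM in mSCC-38 and 27.4 CPM in mSCC-20. So Ifit1 and Ifit2, neighbours on chromosome 19, differed in opposite directions. Ddx58 was at 59.2 CPM in mSCC-38 and 105.6 CPM in mSCC-20, a ratio of 0.561 (0.53 to 0.593), whereas the other RNA helicases Ifih1 and Dhx58 were higher in mSCC-38. Irf1 was at 130.3 CPM in mSCC-38 and 70.7 CPM in mSCC-20 (ratio 1.84, 1.75 to 1.94), and Eif2ak2 at 53.7 CPM in mSCC-38 and 51.6 CPM in mSCC-20 (ratio 1.04, 0.972 to 1.11).

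The chemokines were low in both kinds of cells, with Cxcl9 and Cxcl11 at 3 counts or fewer in each. Cxcl9 had 1 count in mSCC-38 and 3 in mSCC-20, Cxcl10 had 1 in mSCC-38 and 13 in mSCC-20, and Cxcl11 had 0 in mSCC-38 and 1 in mSCC-20. For Cxcl10 the ratio of mSCC-38 to mSCC-20 was 0.0712 (0.00168 to 0.474), and its level in mSCC-20 was 1.73% of the tumour level. Oas2, Oas1a and Ifit3 were also near the limit of counting, with 3, 4 and 6 counts in mSCC-38 and 0, 7 and 4 in mSCC-20. So were Ifi44 and Oasl1, with 11 and 12 counts in mSCC-38 and 0 and 2 in mSCC-20. For Cxcl9 the counts were 0.0245% of the tumour level in mSCC-38 and 0.0793% in mSCC-20. For comparison, the 18 hair genes that reached 500 CPM in skin, and that the cells should lack, stood at a median of 0.0442% of their skin level in mSCC-38 and 0.0684% in mSCC-20, so these Cxcl9 counts were not read as expression. The gamma-type median log2 ratio was 0.88 and the antiviral one 0.61, and with the shared genes counted as gamma-type the order turned round. The median over 3 genes here joined Gbp2, Irf1 and a Cxcl9 that was not read as expressed. The antiviral median also took in Usp18, Ifit3, Ifi44, Oas1a, Oas2 and Oasl1, which were under 1 CPM in both kinds of cells.

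**Figure D4:**
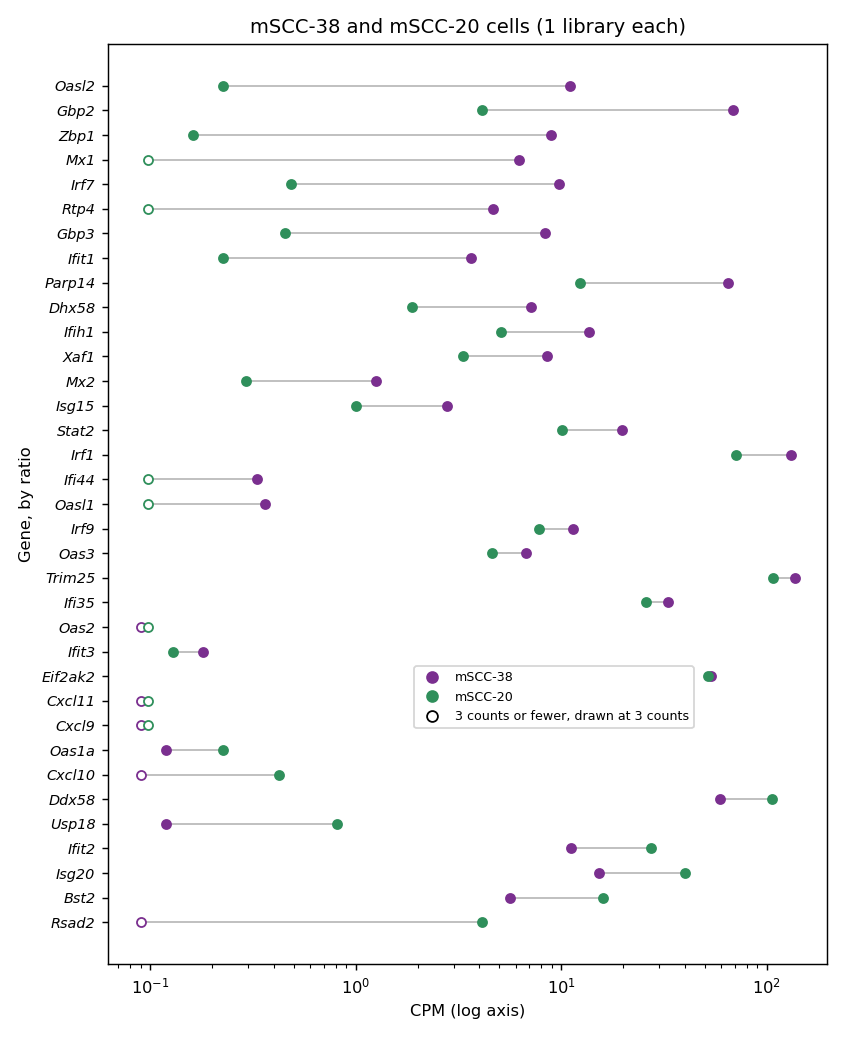
Level of each gene in CPM (log axis) in mSCC-38 and mSCC-20 cells, joined by a line and ordered by the ratio of mSCC-38 to mSCC-20, with open points for 3 counts or fewer, drawn at 3 counts. Oasl2, Gbp2, Zbp1, Mx1, Irf7 and Rtp4 lie far higher in mSCC-38, Rsad2 lies far lower, and Cxcl9 and Cxcl11 are open in both.

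Other genes of the pathway were taken from lists chosen with earlier results of these data known. Of 12 interferon ligands in the table, 6 had any count in any library. Ifng, interferon gamma, had 48 counts in the tumour (1.14 CPM), 7 and 0 in the papillomas (0.329 and 0 CPM) and 4 in skin (0.0806 CPM), and it did not pass the test of tumour against papilloma (edgeR adjusted p = 0.162). Both cell libraries had 0 counts of Ifng. Ifnk, the interferon of keratinocytes, had 9 counts in the tumour, 6 and 10 in the papillomas and 1 in skin, and 0 in the cells. Ifnb1, Ifne, Il28a and Ifnz had 1 count each in the tumour, with 1 count of Ifne also in each of mSCC-38 and mSCC-20, and the 5 listed Ifna genes and Il28b had 0 in every library. By the rule of size, with 0.5 CPM added to each side, Ifng was 2.46-fold higher in the tumour than in the papillomas and 2.82-fold higher than in skin. The other ligand genes had 10 counts or fewer in every library.

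Receptors and signal transducers came from a list of 13 genes. Ifngr1, a chain of the interferon gamma receptor, was higher in the tumour, at 124 CPM against 62.4 and 65.2 CPM in the papillomas (log2 fold change 0.96 ± 0.16, edgeR adjusted p = 0.0179). Irf2, another interferon regulatory factor, rose as well (log2 fold change 0.94 ± 0.13, edgeR adjusted p = 0.0126). Il28ra, the receptor chain of type III interferon, was lower in the tumour, at 4.07 CPM in the tumour, 10.6 and 16.5 CPM in the papillomas and 27.8 CPM in skin (log2 fold change -1.73 ± 0.35, edgeR adjusted p = 0.0293). The type I receptor genes Ifnar1 and Ifnar2 were at 67.1 and 26.8 CPM in the tumour, and at 48.3 to 53.4 CPM and 18.9 to 19.4 CPM in the papillomas, and did not pass the test. Ifngr2 and Il10rb, at 34.7 and 35.2 CPM in the tumour and at 31.7 to 38.7 CPM and 37.6 to 38.7 CPM in the papillomas, did not pass it either. Between the papillomas and skin, 2 of the 13 rose, Socs1 (an inhibitor of Jak kinases) and Il10rb, and 0 fell, against 12.0% and 14.1% of all genes. Of 10 genes of nucleic acid sensing upstream of interferon, 1 was higher in the tumour than in the papillomas and 2 were lower. Of all genes, 11.9% were called higher and 10.6% lower in that comparison, so the share called higher was near that of all genes. The RNA sensor Tlr3 was the higher one, at 38.4 CPM against 9.06 and 9.13 CPM, and Myd88 and the DNA sensor gene E330016A19Rik (Cgas) were lower.

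A further list of 20 antiviral genes gave 12 higher and 0 lower of 19 tested between the tumour and the papillomas. A further list of 16 gamma-type genes gave 12 higher and 0 lower, against 11.9% and 10.6% of all genes for both lists. The median log2 ratios of the lists were 1.09 and 1.53. Most genes of this antiviral list were thus called higher as well. Both lists were chosen with earlier results of these data known, so they are not independent of the result on the 35 genes. Of the gamma-type list, the immunity-related GTPase Iigp1 was at 130.4 CPM in the tumour and 15.2 and 16.5 CPM in the papillomas, and Igtp at 69.2 CPM in the tumour and 8.22 and 8.67 CPM in the papillomas. Of the antiviral list, Ube2l6, the enzyme that conjugates Isg15, was at 20.8 CPM in the tumour and 5.59 and 4.92 CPM in the papillomas, while Ifi27l2a was at 13.7 CPM in the tumour, 14.5 and 19.2 CPM in the papillomas and 52.3 CPM in skin. Between the papillomas and skin, the antiviral list gave 1 higher and 5 lower and the gamma-type list 1 higher and 4 lower, with Ifi27l2a, Iigp1 and Igtp among the falls, against 12.0% and 14.1% of all genes. In mSCC-38 against mSCC-20, by the rule of size, 10 of 16 measured antiviral genes were higher and 1 lower. Of 11 measured gamma-type genes 8 were higher and 1 lower, against 17.2% and 15.7% of all genes for both lists. Psmb8, an immunoproteasome subunit, was at 30.1 CPM in mSCC-38 and 0.585 CPM in mSCC-20, and Cd274 (PD-L1) was at 4.39 CPM in mSCC-38 and 32.5 CPM in mSCC-20.

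Some leukocyte markers were also higher in the tumour than in the papillomas. In this comparison 11.9% of all genes were called higher and 10.6% lower. All 4 pan-leukocyte genes were higher in the tumour than in the papillomas, and their summed level was 249 CPM in the tumour, 112 and 116 CPM in the papillomas and 117 CPM in skin. Ptprc (CD45) was at 67.3 CPM in the tumour, 22.8 and 21.8 CPM in the papillomas and 24.2 CPM in skin. Of 11 T and NK cell genes 4 were higher in the tumour and 0 lower, namely Prf1, Cd8a, Nkg7 and Gzmb. Cd8a was at 8.12 CPM in the tumour, 1.36 and 0.389 CPM in the papillomas and 0.322 CPM in skin. The T cell receptor gene Cd3e was at 3.69 CPM in the tumour, 2.35 and 1.45 CPM in the papillomas and 10.9 CPM in skin, so these genes differed in direction against skin: by the rule of size, 2 were higher in the tumour (Cd8a and Gzmb) and 2 lower (Cd3e and Cd3g). The 11 genes summed to 37.9 CPM in the tumour, 13.8 and 9.98 CPM in the papillomas and 37.9 CPM in skin, so the sum was the same in the tumour and in skin. Of 9 macrophage and monocyte genes 5 were higher in the tumour and 0 lower, with sums of 469 CPM in the tumour, 280 and 339 CPM in the papillomas and 459 CPM in skin. Of 7 dendritic cell genes 1 was higher (Itgax) and 1 lower (Cd207), near the shares of all genes. Their sums were 83.3 CPM in the tumour, 56.4 and 53.8 CPM in the papillomas and 58.9 CPM in skin. Keratinocyte genes gave 0 higher and 3 lower of 8, with the differentiation keratins Krt1 and Krt10 at 96.6 and 94.3 CPM in the tumour and at 8345 CPM or more in the papillomas. Between the papillomas and skin, 14.1% of all genes were called lower and 12.0% higher. There 4 of the 11 T and NK cell genes (Prf1, Nkg7, Cd3e and Cd3g) and 3 of the 9 macrophage genes (C1qa, C1qb and Lyz2) were lower, and 1 of each list was higher. The part of these cells in the levels of the interferon genes was not tested.

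In the cells, the 11 T and NK cell genes were at or near 0, with 10 at 0 counts in mSCC-38 and 9 in mSCC-20, and Ptprc was at 0.0301 CPM in mSCC-38 and 0.1625 CPM in mSCC-20. Other leukocyte markers were counted: Cd53 was at 5.93 CPM in mSCC-38 and 0.0325 CPM in mSCC-20, the macrophage genes Cd68 and Mrc1 at 12.8 and 1.71 CPM in mSCC-38 and at 3.31 and 0.1625 CPM in mSCC-20, and Csf1r at 0.391 CPM in mSCC-38 and 1.88 CPM in mSCC-20. Over the whole lists, the 4 pan-leukocyte genes summed to 10.2 CPM in mSCC-38 and 4.91 CPM in mSCC-20, and the 9 macrophage genes to 15.5 CPM in mSCC-38 and 5.95 CPM in mSCC-20. By the rule of size, 1 of 8 keratinocyte genes was higher in mSCC-38 and 4 were lower. Of 6 measured fibroblast genes 5 were higher and 0 lower, against 17.2% and 15.7% of all genes for both lists. Krt14 was at 3045 CPM in mSCC-38 and 6611 CPM in mSCC-20, and the epithelial cadherin Cdh1 at 1.62 CPM in mSCC-38 and 195 CPM in mSCC-20. Dsc3 went the other way, at 246 CPM in mSCC-38 and 56.5 CPM in mSCC-20. Of the fibroblast genes, Col1a1 was at 122 CPM in mSCC-38 and 2.18 CPM in mSCC-20. The cells therefore also differed in leukocyte, epithelial and fibroblast markers, whose part in the interferon differences was not tested.

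**Figure D5:**
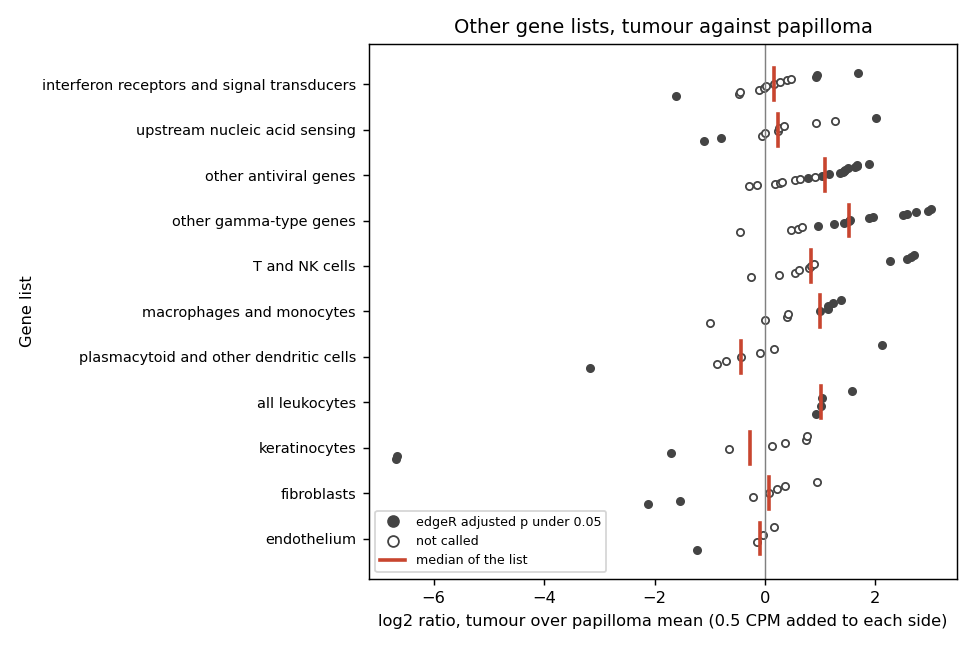
Log2 ratio of the tumour over the papilloma mean (0.5 CPM added to each side) for each gene of 11 further lists of pathway genes and cell markers, with filled points at an edgeR adjusted p under 0.05 and a red bar at each list's median. The other antiviral and other gamma-type lists have medians of 1.09 and 1.53 and no filled point below 0, and the 4 pan-leukocyte genes are all filled above 0.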

How the data were processed

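RNA of 4 mouse skin biopsies and of 2 kinds of tumour-derived cells was sequenced from total RNA, with a small RNA library kit for SOLiD, per the labels' protocols. The authors deposited 1 table of raw counts per gene model and of RPKM values (counts scaled by model length and library total). The submitters' processing notes name build mm9. How reads were aligned and counted, and whether strand was used, is not stated in the labels or headers. RPKM values were used only to compare genes within a library.

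The 35 genes and all lists were chosen with earlier results of these data known. The 4 biopsy libraries were fitted together in edgeR 4.0.16 (R 4.3.3; TMM, filterByExpr by group, 16353 genes, quasi-likelihood test, Benjamini-Hochberg adjustment over all genes). The papilloma pair alone gives its residual degree of freedom (1), and its common dispersion was 0.0773. Each SE was computed as the size of the log2 fold change divided by the square root of the test's F statistic. The papilloma libraries differed by more than counting noise (chi-square per degree of freedom 64.5), and the labels name them as distinct papillomas. CPM were scaled with TMM factors over all 6 libraries (0.847 to 1.20). With 1 library a side no test was made and a rule of size was used: at least 2-fold with 0.5 CPM added to each side, and at least 1 CPM in the higher library. Exact 95% Clopper-Pearson intervals and the limit of 3 counts cover counting error only. The script was tested on simulated counts. The rule for named genes took all 35, the interferon ligands and receptors, and of each further list up to 4 genes per comparison with the largest change past its rule; 1 gene of the receptor list is not reported here. Alternatives were DESeq2 1.42.0 (Wald test), its size factors, total counts alone, no filter, all 6 libraries in the fit, other minimums, folds and pseudocounts, and leaving out each papilloma.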

Additional observations from a re-analysis of the deposited data

How the results depend on the processing

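The tumour against papilloma counts kept their direction and stayed within 1.5 times under every alternative tried (15 to 18 genes higher and 0 lower by test, 17 to 19 higher and 0 lower by size). Papilloma against skin varied more. The 5 lower genes became 3 with the DESeq2 Wald test, 4 with all 6 libraries in the fit, 2 with DESeq2 size factors and 10 with total counts alone, while the count of higher genes was 2 each time. By size, 2 higher became 1, and 3 lower became 11, with total counts alone. Tumour against skin went to 7 higher and 0 lower at 4-fold, against 16 and 2, and to 1 lower at 10 CPM. For mSCC-38 against mSCC-20, 14 higher became 4 at 10 CPM and 9 at 4-fold, and 4 lower became 1 at 4-fold. These stricter rules leave fewer genes by construction. The antiviral minus gamma-type difference of medians, -0.27 for papilloma against skin, was -0.37 without papilloma 1 and -0.032 without papilloma 2. It was -2.07, against -2.68, for tumour against papilloma with the shared genes counted as gamma-type, and under the same choice it turned to 0.21, from -0.27, for mSCC-38 against mSCC-20. The cause was not tested. Leaving out a papilloma leaves no residual degrees of freedom, so the edgeR counts were not refitted that way. No paired analysis was possible because only the papillomas had 2 libraries, and every other group had 1. Depth limits the chemokines, Oas1a, Oas2, Oasl1, Ifit3, Ifi44 and the ligands in the cells, all at 13 counts or fewer.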
